A study of Mus musculus with 4 samples.

Results

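Wide stretches of the mouse autosomes that carry no CTCF peak in either B cells or plasmablasts are described here, together with the peaks that border them. CTCF is a zinc finger protein that binds a long DNA motif. Together with the ring-shaped cohesin complex it anchors chromatin loops, and it insulates neighbouring domains from each other. CTCF sites are known to gather in gene-rich sequence and to be few in gene deserts, so the spacing between sites is a coarse map of how a chromosome can be divided into loops. Midpoints of both deposited peak lists on chromosomes 1 to 19 were pooled and sorted. Every interval of at least 400 kb between neighbouring midpoints was taken as a gap. Of 65902 intervals, 869 met this length, which is 1.32%. The members were chosen by the peak positions of both libraries, so their number, length and place are descriptions. The same positions decide which border sites are shared, so the makeup of the borders is a description too.

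The study mapped CTCF by chromatin immunoprecipitation sequencing in spleen cells of C57BL/6 mice aged 6 weeks, with no genetic change named. B cells were the CD43-negative fraction that a magnetic bead kit leaves from spleens, and no injection is named for them. Plasmablasts arise from activated B cells, still divide and already secrete antibody. They were sorted for surface CD138 from spleens taken 3 days after 50 µg of lipopolysaccharide had been given retro-orbitally. A single CTCF library per cell type gave 36381 peaks in B cells and 31086 in plasmablasts, of which 35686 and 30235 were autosomal. Each cell type also had 1 input library, not analysed here. Nothing in the labels says how many mice were pooled. The B cell libraries were run on a Genome Analyzer II and the plasmablast libraries on a HiSeq 2000, so cell type and instrument cannot be told apart. The depth behind the lists is unknown. With 1 library per cell type there is no replicate spread, and no test was made between the cell types. The intervals given are exact 95% binomial ones, which cover counting error only. Peak scores are the authors' own values, without a stated unit, and were compared only within a list. A listed peak with an overlap of at least 1 bp in the other list was called shared. Peaks joined in this way made up 41735 autosomal sites.

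The gaps covered a large part of the autosomes. They summed to 939 Mb of the 2403 Mb between the first and last pooled midpoints of the chromosomes, or 39.1%. Their median length was 768 kb, with quartiles of 531 and 1232 kb, whereas the median of all intervals was 5.72 kb. The 90th percentile of all intervals was 68.1 kb and the 99th was 527 kb. A length of 1 Mb was reached by 292 gaps, which held 24.0% of the span. A length of 2 Mb was reached by 102 gaps, 3 Mb by 46, 4 Mb by 15 and 5 Mb by 6.

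**Figure D1:**
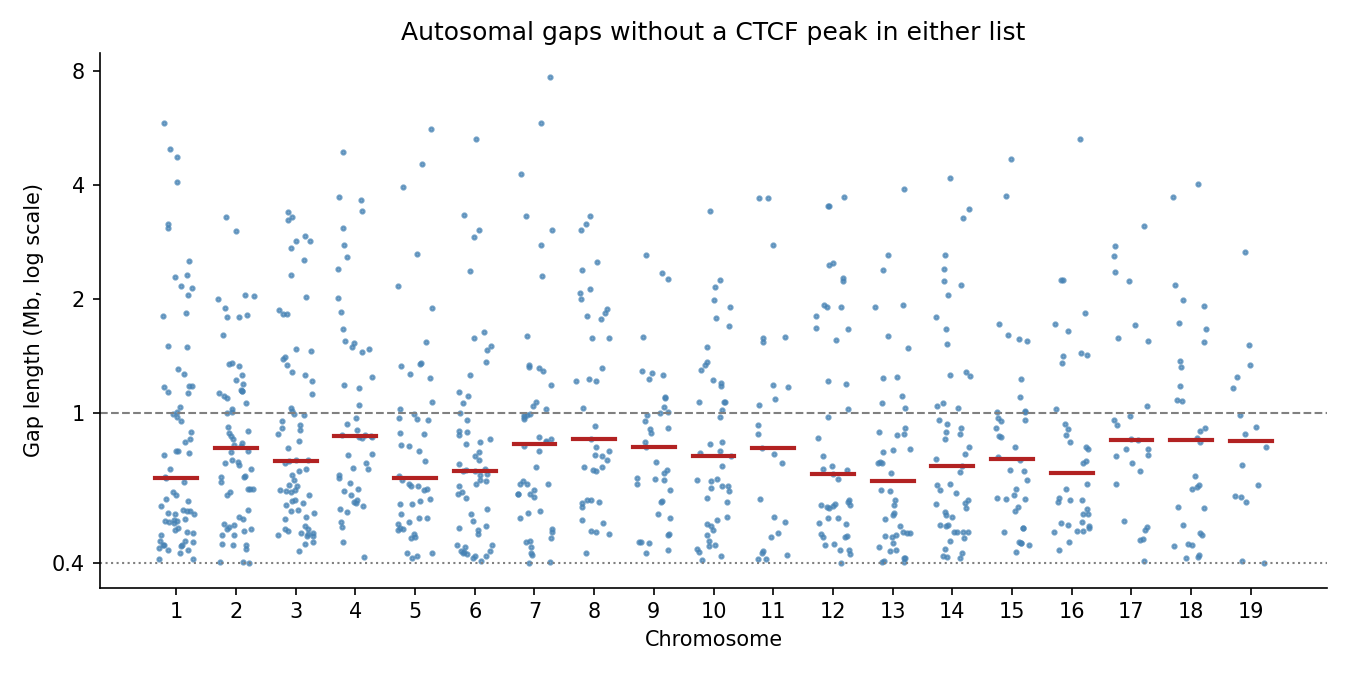
Length of each of the 869 gaps in Mb (log axis) by chromosome; points are gaps, red bars are medians, the dotted line is the 400 kb minimum and the dashed line is 1 Mb. Medians lie between 660 and 869 kb on every autosome, while single gaps on chromosomes 1, 5, 6, 7 and 16 exceed 5 Mb.

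The longest gap was on chromosome 7, from the midpoint at 39067771 to that at 46773287 (mm9, 1-based), a length of 7.71 Mb. Its left border was a weak peak listed only in B cells, with a score of 13.0 at the 1.66th percentile of the list. Its right border was shared, with a score of 122.3 in B cells and 18.7 in plasmablasts (70.1st and 48.6th percentiles). The next gap in length was on the same chromosome, between 7252281 and 13071542 (5.82 Mb). It joined a strong site with a weak one: the left site scored 309.3 in B cells and 102.5 in plasmablasts, at the 99.2nd and 99.7th percentiles, and the right site was listed only in B cells, with a score of 14.8. Next in length was chromosome 1 from 114352796 to 120171934 (5.82 Mb), whose borders scored 18.5 (B cells only) on the left, and 19.4 in B cells and 6.8 in plasmablasts on the right. Both ends of that gap were weak, between the 10.3rd and 12.1st percentiles of the lists.

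Of the 10 longest gaps 5 had no shared site at either end, against 280 of all 869 gaps (32.2%). On chromosome 5 the gap of 5.63 Mb from 78236974 to 83869463 lay between a B cell peak of score 25.0 and a plasmablast peak of score 23.3. On chromosome 16 the gap of 5.30 Mb from 79168606 to 84469341 lay between plasmablast peaks of scores 8.2 and 8.0. On chromosome 6 the gap of 5.30 Mb from 73468175 to 78768237 lay between a B cell peak of 33.3 and a plasmablast peak of 5.9. The same held on chromosome 1 from 25673986 to 30641880 (4.97 Mb, plasmablast scores 11.7 and 37.9) and from 102128721 to 106882994 (4.75 Mb, a B cell score of 34.3 and a plasmablast score of 40.4). The remaining 2 of the 10 were on chromosome 4 from 26471216 to 31346585 (4.88 Mb) and chromosome 15 from 14067365 to 18751321 (4.68 Mb). Each had a plasmablast-only peak on the left (10.3 and 6.2) and a shared site on the right. At the other end of the scale, the 3 shortest gaps measured 400019 bp on chromosome 12, 401416 bp on chromosome 19 and 401550 bp on chromosome 2, all with shared sites at both ends. The intervals that just missed the minimum measured 399733 bp on chromosome 9, 399682 bp on chromosome 3 and 398372 bp on chromosome 4.

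An unsequenced stretch of the assembly looks like a gap, since no read can map to it. All 292 gaps of 1 Mb or more are therefore flagged as ones that may hold assembly gaps. Runs of unknown bases were not counted in them, since no mm9 sequence was used here, and the flag rests on length alone. The ends of the chromosomes were left out by the rule. The first pooled midpoint lay between 3.00 and 3.53 Mb on 17 autosomes, at 4.32 Mb on chromosome 1 and at 8.58 Mb on chromosome 14. Mouse chromosomes carry their centromere at the low-numbered end, and its repeats are a placeholder in mouse assemblies.

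Every autosome held wide gaps, from 16 on chromosome 19 to 74 on chromosome 1. Relative to length they were sparsest on chromosome 11, with 21.0 gaps per 100 Mb, and most frequent on chromosome 14, with 45.6, followed by chromosome 3 with 44.8. Chromosome 3 had the largest share of its span in gaps (49.3%), followed by chromosome 14 (48.5%), chromosome 12 (45.2%) and chromosome 1 (44.2%). The smallest shares were on chromosome 11 (23.7%), chromosome 19 (26.6%) and chromosome 9 (30.0%). These shares follow the density of sites on which the rule acts: chromosome 11 had 28.2 sites per Mb and chromosome 3 had 12.6. The longest gap of a chromosome ranged from 2.61 Mb on chromosome 9 and 2.66 Mb on chromosome 19 to the 7.71 Mb on chromosome 7.

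Within chromosomes the gaps lay towards the low-numbered, centromeric side. With each span divided into 5 equal parts, gaps covered 47.4% of the lowest-numbered part, then 44.0%, 43.7% and 36.3%, and 24.0% of the highest-numbered part. Site density ran the other way, from 13.8 to 24.9 sites per Mb. The lowest part had the larger share in 14 of 19 autosomes, as on chromosome 4 (61.9% against 11.7%) and chromosome 9 (57.6% against 8.11%). In the 5 others, chromosomes 10, 14, 16, 17 and 19, the highest part had more, as on chromosome 16 (38.0% against 23.6%). On chromosome 14 (58.5% against 47.4%) the span begins only at 8.58 Mb. The sequence without a listed peak before that point is not counted in its lowest part.

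**Figure D2:**
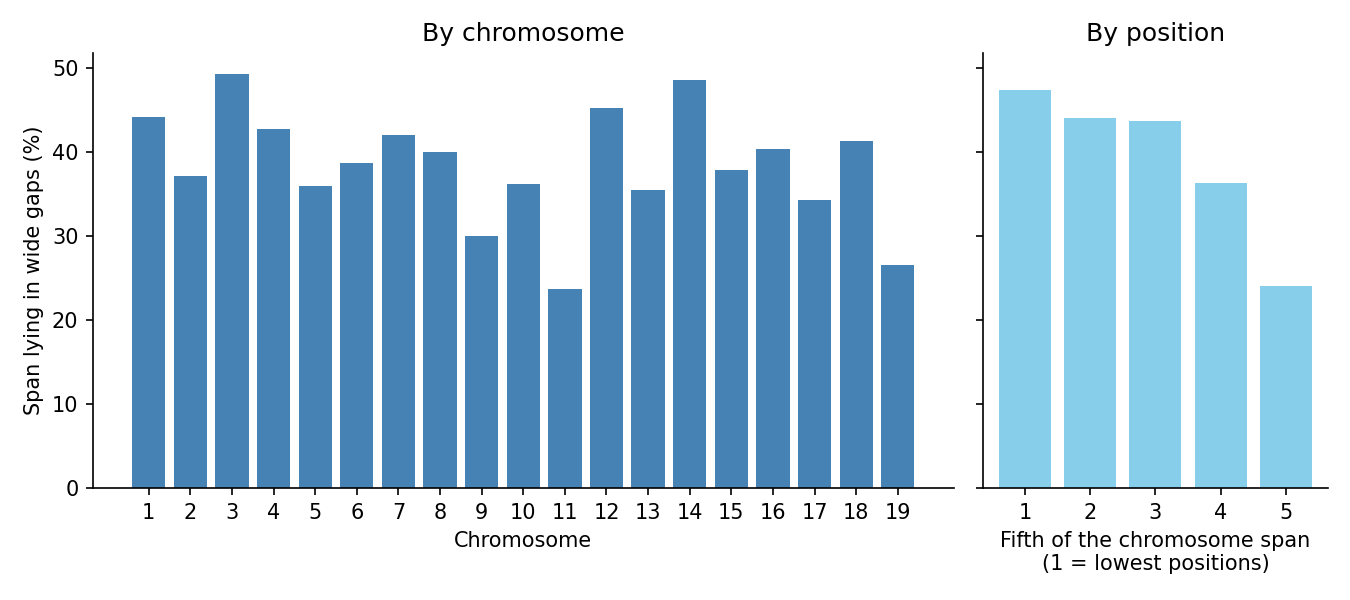
Share of the span between first and last pooled midpoint that lies in gaps of at least 400 kb, in %, for each autosome (left) and for 5 equal parts of each span summed over autosomes (right). Chromosome 3 has the highest bar (49.3%) and chromosome 11 the lowest (23.7%), and the share falls from 47.4% in the lowest-numbered part to 24.0% in the highest.

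Gaps tended to follow each other along a chromosome with little between them. Of 866 gaps with a further interval to their right, 176 were followed at the very next site by another gap (20.3%, interval 17.7 to 23.2%), whereas gaps were 2.08% of all intervals between neighbouring sites. In all, 307 gaps (35.3%) stood in 131 runs of at least 2 with a single site between neighbours, and 562 stood alone. There were 29 runs of 3 or more gaps.

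The longest run, on chromosome 16 from 66435117 to 72216177, had 6 gaps in 5.78 Mb with 5 single sites between them. Of these sites 3 were plasmablast-only with scores of 11.4, 6.8 and 6.6, and 1 was B cell-only with a score of 14.8. The last was shared, with scores of 44.5 in B cells and 39.5 in plasmablasts. There were 4 runs of 5 gaps. On chromosome 14 from 107006499 to 115190812 (8.18 Mb) the single sites were 3 plasmablast-only peaks of 21.5, 20.5 and 5.5 and 1 shared site (24.1 in B cells, 12.3 in plasmablasts). On chromosome 8 from 98676965 to 105305009 (6.63 Mb) all 4 single sites were plasmablast-only, with scores from 6.1 to 10.7. On chromosome 4 from 74209640 to 80824754 (6.62 Mb) 3 were plasmablast-only (8.0 to 16.6) and 1 B cell-only (18.5). On chromosome 9 from 9375463 to 13272227 (3.90 Mb) the order was different, with 3 shared sites (20.4 to 38.0 in B cells, 5.5 to 20.5 in plasmablasts) and 1 plasmablast-only peak of 14.2. At these 21 single sites all 7 B cell peaks lay below the median score of the B cell list (62.1), and 15 of the 19 plasmablast peaks lay below that of the plasmablast list (19.4). Over the autosomes 50.5% of B cell and 50.6% of plasmablast peaks reached these medians. Most of the single sites were plasmablast-only, and 25.7% of such sites that border no gap reached it. For shared sites that border no gap it was 70.6% in B cells and 57.4% in plasmablasts.

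Stretches between a gap and the next on the same chromosome ranged from 1 site to 912 sites. Of 850 such stretches 176 held 1 site, 165 held 2 to 5, 190 held 6 to 20, 210 held 21 to 100 and 109 held over 100. The 109 largest contained 25352 of the 38211 sites in such stretches and had a median span of 6127 kb. Sites before the first or after the last gap of a chromosome belong to no stretch. The makeup of the sites changed with the size of the stretch. Of the 176 solitary sites, 29.5% were shared (interval 22.9 to 36.9%). This became 44.4% in stretches of 2 to 5 sites, 48.7% in those of 6 to 20, 54.9% in those of 21 to 100 and 60.1% in those of over 100 (59.5 to 60.7%). Among the unshared sites the plasmablast part went from 76.6% (68.2 to 83.7%) in solitary sites over 68.8%, 53.5% and 39.2% to 29.7% (28.8 to 30.6%) in the largest stretches.

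The 869 gaps were bordered by 1562 different sites, among which plasmablast-only peaks were more numerous than over all autosomal sites. Shared sites made up 735 of them, or 47.1% (interval 44.6 to 49.6%), against 58.0% of all autosomal sites. B cell-only sites made up 302 (19.3%, against 27.6%) and plasmablast-only sites 525 (33.6%, interval 31.3 to 36.0%, against 14.5%). Of the unshared border sites, 63.5% came from plasmablasts (60.1 to 66.8%), against 34.5% over all autosomes. The plasmablast part was higher at border sites than at other sites in all 19 autosomes, from 53.1 to 70.8% at border sites and from 27.5 to 40.2% elsewhere. The shared percentage was lower at border sites in 17 of 19, with chromosomes 18 (60.0% against 56.1%) and 19 (67.7% against 59.0%) as the exceptions. Since the positions that decide sharing also chose the gaps, these counts by autosome are descriptions and no independent support. Low local site density already goes with a larger plasmablast part in these lists, so the border values are not independent of that trend. A further count took sites with as few shared sites within 500 kb as the sparsest 20% of shared sites have. Of the unshared ones among them, 64.3% at borders (60.8 to 67.6%) and 44.2% elsewhere (42.7 to 45.8%) were plasmablast-only. With shared sites included, plasmablast-only sites made up 35.1% of the 1437 border sites and 21.2% of the 8478 others. Local density was not held equal between these groups, since the limit is only an upper one. The part that depth or instrument has in the larger plasmablast part at borders was not tested.

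Longer gaps had a smaller share of shared ends. Counting each gap end, 51.2% of the ends of gaps of 400 to 600 kb were shared (47.1 to 55.3%), 43.9% for 600 kb to 1 Mb, 42.4% for 1 to 2 Mb and 37.3% for 2 Mb or more (30.6 to 44.3%). Plasmablast-only ends went from 28.5% over 34.6% and 42.6% to 46.6% (39.6 to 53.7%). B cell-only ends stood at 20.4%, 21.4%, 15.0% and 16.2%. The left and right ends of the gaps were alike, with 45.8% and 44.8% shared. By pairs of ends, 198 gaps had 2 shared ends (22.8%), 391 had 1 shared end and 280 (32.2%) had none. The pair of 2 plasmablast-only ends occurred in 132 gaps with a median length of 965 kb, and that of 2 B cell-only ends in 45 with a median of 647 kb.

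**Figure D3:**
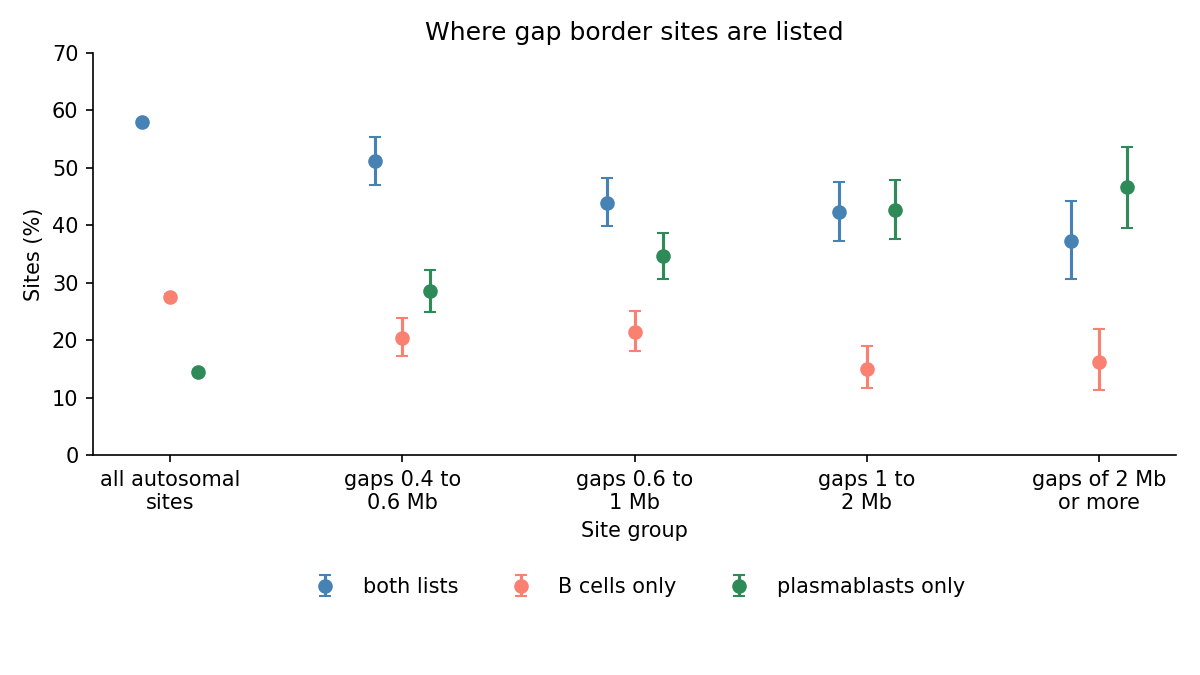
Percentage of sites listed in both cell types, in B cells only or in plasmablasts only, for all autosomal sites and for gap ends by gap length; bars are exact 95% binomial intervals. The plasmablast-only points climb from 28.5% to 46.6% with gap length against 14.5% over all sites, and the shared points fall from 51.2% to 37.3%.

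Shared sites at the gap borders scored lower than other shared sites in both libraries, and lay near the middle of the whole lists (median percentiles 49.1 in B cells and 43.7 in plasmablasts). In B cells the 735 shared border sites had a median score of 60.2 (interval of the median 53.7 to 64.8; quartiles 31.9 and 110), against 107 at the 23451 other shared autosomal sites (quartiles 53.7 and 183). That is a ratio of 0.56. In plasmablasts the medians were 16.2 (15.1 to 17.4; quartiles 9.10 and 27.5) and 23.7 (quartiles 11.6 and 42.2), a ratio of 0.68. The scores did not take part in the choice of gaps, but sites of 1 library are not replicates, so no test was made. By autosome the B cell ratio lay between 0.33 and 0.68 and the plasmablast ratio between 0.45 and 1.03. Chromosome 5 was the 1 autosome whose plasmablast ratio was not below 1. Against other shared sites of the sparsest 20%, whose medians were 82.4 and 20.8, the ratios were 0.73 and 0.78. Local density was not held equal in that comparison either. The 52 shared sites standing alone between 2 gaps had medians of 38.5 in B cells and 12.2 in plasmablasts.

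**Figure D4:**
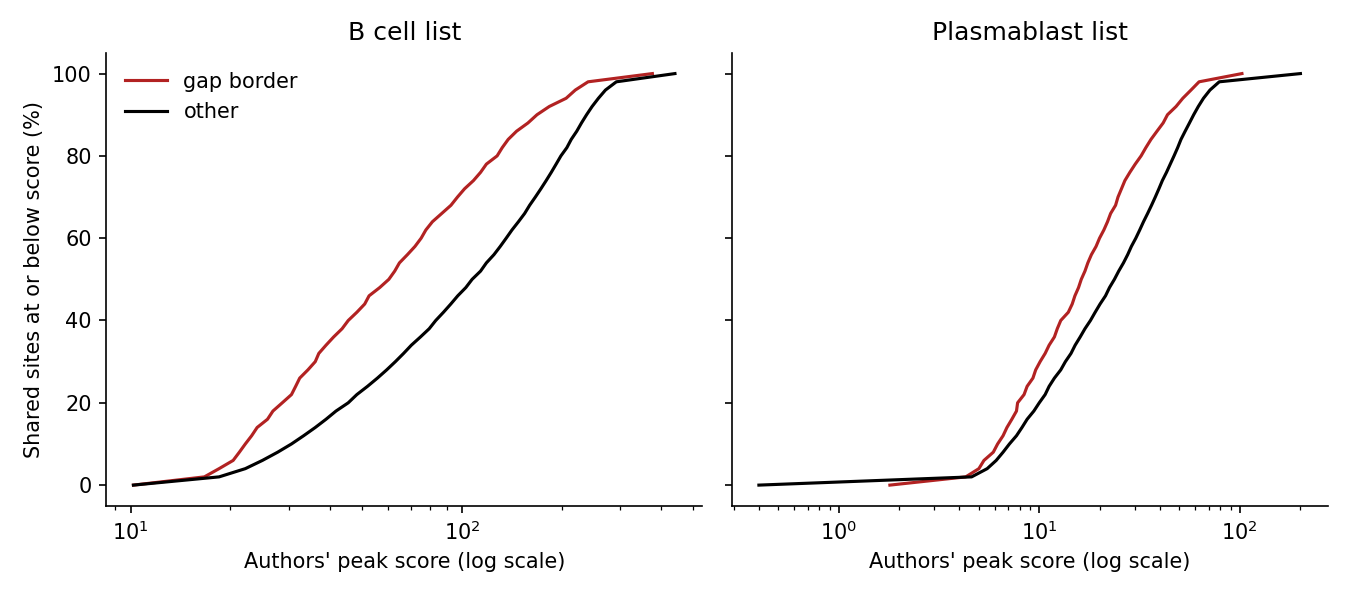
Cumulative percentage of shared autosomal sites by the authors' peak score (log axis) in the B cell list (left) and the plasmablast list (right), for the 735 sites at gap borders (red) and the 23451 others (black). The red curves lie to the left, with medians of 60.2 against 107 in B cells and 16.2 against 23.7 in plasmablasts.

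Unshared border peaks differed less from their kind. B cell-only border peaks had a median of 21.3 (19.4 to 22.2) against 25.0 for the other B cell-only peaks. Plasmablast-only border peaks had a median of 9.40 (8.70 to 10.5) against 10.3. Of all 1037 B cell peaks at borders 36.0% reached the median score of the whole list, against 50.5% of all autosomal B cell peaks. Of the 1260 plasmablast peaks at borders 32.7% did, against 50.6%. The highest 10% of the list by score held 34 of these B cell peaks (3.28%, against 10.3% of autosomal peaks) and 37 of these plasmablast peaks (2.94%, against 10.2%).

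Read from the plasmablast list, sharing was lower at the borders, while read from the B cell list it stood close to the share over all peaks. Of the B cell peaks at borders 70.9% were shared (68.0 to 73.6%), against 67.8% of all autosomal B cell peaks. Of the plasmablast peaks at borders 58.3% were shared (55.6 to 61.1%), against 80.0%. At like strength the split was seen in the weakest and the middle of 3 score groups, but not among the strongest B cell peaks. With each list divided by score into 3 groups of equal size, 46.8% of the weakest B cell border peaks were shared (42.2 to 51.4%), against 28.6% of the other B cell peaks of that group. In the middle group the values were 87.0% and 74.8%, and in the strongest 96.9% and 98.2%. In plasmablasts the weakest border peaks were shared in 45.5% of cases (41.5 to 49.6%) against 65.8% elsewhere, the middle ones in 65.3% against 83.6%, and the strongest in 81.9% against 92.6%.

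A few border peaks were among the strongest of their list. The top of the B cell list, on chromosome 17 at 39980139 to 39980443 (score 533.5, B cells only), ended a gap of 2.59 Mb that began at 37387686. The strongest plasmablast border peak lay 1974 bp further on, at 39982176 to 39982354 (179.6, plasmablasts only), and opened a gap of 979 kb. This pair of peaks was thus flanked on both sides by sequence without any listed peak. Whether this locus is repeated in the genome, so that reads pile up, was not tested. On chromosome 2 the site at 39228632 to 39228936, with scores of 335.3 in B cells and 68.4 in plasmablasts, opened the longest gap of that chromosome (3.29 Mb). On chromosome 7 the site at the left of the 5.82 Mb gap was the second strongest plasmablast border peak (102.5). Others of the top 5 stood at gaps closer to the minimum: on chromosome 3 the peak at 14381746 to 14382050 (376.0 in B cells, 38.1 in plasmablasts) bordered 503 kb, and on chromosome 9 the peak at 30288100 to 30288404 (375.1 and 66.0) bordered 457 kb. The site on chromosome 3 at 90514034 to 90514338 (335.3 and 57.3) bordered 1.34 Mb. In plasmablasts the remaining 3 of the top 5 were shared sites on chromosomes 6, 14 and 2 with scores of 94.5, 84.7 and 82.1. Their gaps were 1255, 752 and 493 kb long.

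Beyond the borders, sites remained sparse. Within 100 kb outward of a gap end there were 1.16 sites on average, against 3.82 on 1 side of an autosomal site taken at large. Within 500 kb there were 6.35 against 16.7, and within 1000 kb 13.3 against 30.5. In bins of 50 kb the outward mean stayed between 0.555 and 0.742 sites out to 1000 kb, below the 0.868 sites per 50 kb of the whole span. These means include the further gaps that lie close by.

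**Figure D5:**
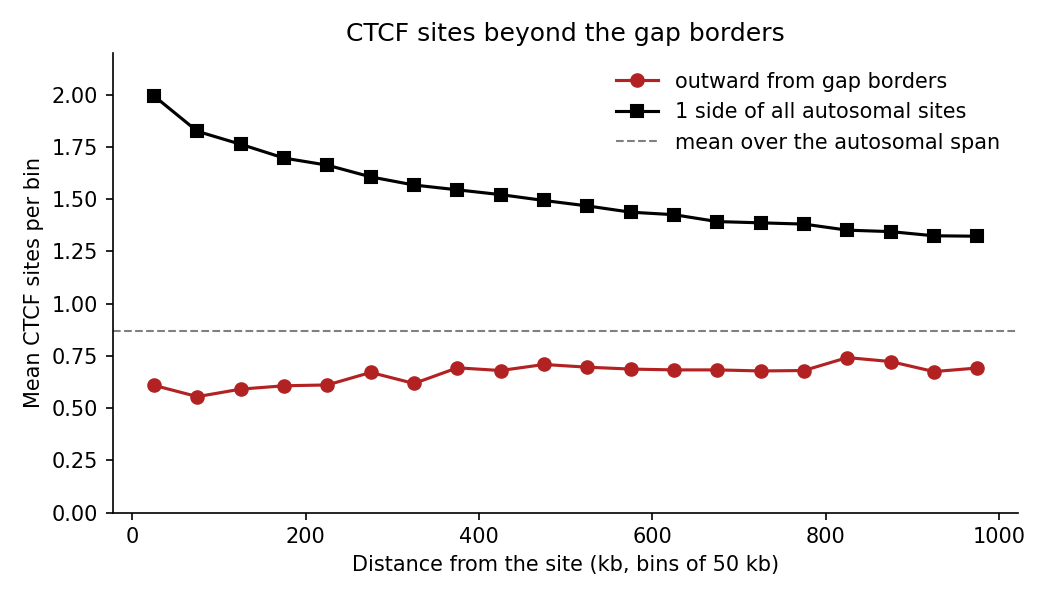
Mean number of CTCF sites per 50 kb bin by distance in kb outward from gap ends (red), from all autosomal sites on 1 side (black), and over the whole autosomal span (dashed, 0.868). The red points run from 0.555 to 0.742 and stay below the dashed line at every distance, while the black points fall from 1.994 to 1.323.

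Each list taken alone had about as many wide gaps, but peaks of the other cell type stood in many of them. The B cell list had 846 gaps of at least 400 kb, with a summed length of 1045 Mb, and the plasmablast list had 959 with 1036 Mb. A plasmablast peak lay within 465 of the B cell gaps (55.0%, interval 51.5 to 58.4%), and a B cell peak lay within 376 of the plasmablast gaps (39.2%, 36.1 to 42.4%). When only peaks at or above the median score of their list were used, this order was lost, with 48.9% and 49.4%. With the B cell list cut to its strongest peaks, as many as the plasmablast list has on the autosomes, the values were 63.8% and 26.0%. The 887 plasmablast peaks inside B cell gaps were 2.93% of the autosomal plasmablast peaks and had a median score of 10.0, against 19.8 for the autosomal list. Of these 20.5% reached the median of the whole list. The 656 B cell peaks inside plasmablast gaps were 1.84% of their list, with a median score of 22.2 against 63.0, and 4.12% reached the median of the whole list. Peaks inside a gap of the other list are unshared by construction, whereas the autosomal lists also hold shared peaks. Plasmablast-only sites that border no pooled gap had a median of 10.3, and 25.7% reached the median of the list. For B cell-only sites that border no pooled gap these values were 25.0 and 9.63%. Peaks of the other list left no stretch of 400 kb in 99 of the B cell gaps and 120 of the plasmablast gaps.

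The longest B cell gaps were broken by few plasmablast peaks, most of them weak. No B cell peak was listed on chromosome 3 from 41416333 to 50105025 (8.69 Mb), a stretch where plasmablasts had 6 peaks with scores from 5.9 to 16.7. On chromosome 5, from 54545930 to 63071119 (8.53 Mb), 3 plasmablast peaks scored from 5.3 to 40.4, and the highest of these was at the 77.9th percentile of the plasmablast list. On chromosome 6, from 73468175 to 81883411 (8.42 Mb), 3 scored from 5.9 to 14.2. In the plasmablast list the longest gaps broken by B cell peaks were shorter. On chromosome 7, from 39052262 to 46773287 (7.72 Mb), there were 2 B cell peaks of 13.0 and 25.0. On chromosome 1, from 100075820 to 106882994 (6.81 Mb), there was 1 of 34.3, and on chromosome 7, from 7252280 to 13459834 (6.21 Mb), there were 2 of 14.8 and 44.5. The most peaks of the other list inside a gap was 8 in both directions. In B cell gaps this was found on chromosome 16 from 70569296 to 75696630 (5.13 Mb, plasmablast scores 6.2 to 23.0) and on chromosome 8 from 55593258 to 59009368 (3.42 Mb, 5.9 to 19.9). In plasmablast gaps it was found on chromosome 3 from 52072694 to 52562677, a gap of 490 kb with B cell scores from 11.1 to 52.8. These 3 were picked after their values were seen.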

How the data were processed

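CTCF peak positions were taken from the 2 peak lists the authors deposited, 1 for the B cell and 1 for the plasmablast library. Coordinates are on mm9, and reads were processed with Bowtie and HOMER, per the submitters' processing notes. How the input was used, peak thresholds and tool versions are not stated in the labels. The score in the deposited lists is the authors' own value, of unstated unit, and depth is unknown. Lists were read as BED, adding 1 to each start. Midpoints on chromosomes 1 to 19 were pooled, and intervals of at least 400000 bp kept. Overlapping peaks (at least 1 bp) were merged to sites; a site next to 2 gaps was counted once. Shares have exact (Clopper-Pearson) 95% intervals and medians have binomial order-statistic intervals, both for counting error only. The members, lists and comparisons were chosen with earlier results of these data known. Regions named with coordinates follow a written rule: the 10 longest gaps, those nearest the minimum, the 5 longest runs, the 5 strongest border peaks per list, the 5 longest gaps with unshared ends and the 3 longest broken single-list gaps. Gap finding was tested on simulated positions. Alternatives were other length minimums, distances, sharing rules and peak subsets. Gene content and sequence were not analysed here, since the gene tables at hand are on GRCm38 and not mm9. The software was Python 3.11.15 with scipy 1.17.1, numpy 2.4.6, pandas 2.3.3 and matplotlib 3.10.9.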

Additional observations from a re-analysis of the deposited data

How the results depend on the processing

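Of 66 alternatives over 8 results, 42 stayed within the interval of the reported value (or within 1.5 times it for the gap count and the share of the span), 24 moved and 0 were reversed. A reversal could be called only for the shared percentage, the plasmablast part and the score ratios, which have a value over all or other sites beside them. The gap count, the share of the span and the single-list values could only stay or move. With a minimum of 1000000 bp there were 292 gaps on 24.0% of the span. Border sites were then shared in 41.8%, the plasmablast part of unshared ones was 72.6%, the score ratios of shared border sites were 0.45 in B cells and 0.62 in plasmablasts, and 69.0% of B cell and 36.1% of plasmablast single-list gaps held a peak of the other list. With 300000 bp the plasmablast part was 60.0%, and the single-list values were 51.3% and 42.4%. Without gaps of 1000000 bp or more, which may hold assembly gaps, 577 gaps on 15.1% of the span remained, with a plasmablast part of 60.0%. For peaks at or above the median score the plasmablast part was 51.9%, against 34.6% of all unshared sites there. The score ratios were 0.82 and 0.87, and the single-list values were 48.9% and 49.4%, without the order of the reported 55.0% and 39.2%. With the B cell list cut to the length of the plasmablast list the plasmablast part was 77.1%, against 50.0% of all unshared sites, and the single-list values were 63.8% and 26.0%. Against shared sites of the sparsest 20% the score ratios were 0.73 and 0.78. The causes of these moves were not tested beyond what each setting removes. No paired analysis was possible because each cell type has 1 CTCF library, and for the same reason leaving out a replicate was not possible. Since depth is unknown, a gap is a stretch without a listed peak and is not shown to lack CTCF binding.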

Other observations

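The X chromosome, outside the rule, was richer in wide gaps than any autosome by span. It held 74 gaps of at least 400 kb, which summed to 102 Mb and covered 62.8% of its span, against at most 49.3% on an autosome. The frequency was 45.5 gaps per 100 Mb, close to the 45.6 of chromosome 14, and the median length was 735 kb. The longest ran from 23142905 to 33353375 (10.2 Mb). Of 126 X border sites, 41 were shared (32.5%, interval 24.5 to 41.5%), against 50.2% of all 1028 X sites. Of the others, 13 were listed in B cells only and 72 in plasmablasts only. How all unshared X sites divide between the lists is not given here, so this split is not shown to be particular to the borders. With X added to the autosomes, the plasmablast part of all unshared sites went from 34.5% to 35.3%. These X values were chosen after the autosomal ones were seen, and assembly gaps on X were not checked.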
